A study of Mus musculus with 6 samples.

Results

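The WT Th9 baseline comprised the 3 wild-type (WT) samples of a series of 6 RNA-seq samples, and these 3 were taken by their genotype label, with no measured value used to choose them. The cells were naive CD4+ T cells (CD25-, CD62L high, CD44 low) from the spleen and lymph nodes of C57BL/6 mice aged 8 to 10 weeks. They were stimulated with plate-bound anti-CD3 at 2 µg/ml and soluble anti-CD28 at 1 µg/ml, and were polarised towards the IL-9-producing Th9 type with IL-4 at 20 ng/ml, TGF-β at 2.5 ng/ml and anti-IFN-γ at 10 µg/ml for 48 h. The WT mice were littermates that carried the floxed Cul5 allele without CD4-Cre, so Cul5 was flanked by loxP sites but not deleted. The other samples of the series carried the deletion and were not used here, so every value below is a level within WT cells and not a difference between genotypes. The replicates came from 1 experiment, and the labels do not say whether they came from separate mice, so the spread given here may be technical.

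The libraries held 23225640, 23111689 and 3944803 estimated counts in WT replicates 1, 2 and 3. Replicate 3 was therefore the shallow library. It also stood apart for many pseudogenes, and replicate 1 stood apart for several immediate early genes, as described below. Replicates are therefore shown individually. Levels are given in TPM, counts divided by effective transcript length and scaled to 1000000 per library, which allows genes to be compared. A row of 3 values always gives replicates 1, 2 and 3 in that order. Of 35975 genes, 19387 had no more than 3 counts in every replicate, and such a gene is described as at or under the floor. A count of 3 corresponded to 0.129, 0.13 and 0.76 CPM (counts scaled to 1000000 per library) in the respective replicates, and this limit covers counting error only. Among the 21897 protein-coding genes, 6844 were at or under the floor, 4079 lay under 1 TPM on average, 3102 between 1 and 10 TPM, 6367 between 10 and 100 TPM and 1505 at 100 TPM or more. The median over the 15053 protein-coding genes above the floor was 11.6 TPM. Because the samples were bulk cultures, fewer cells of a type and less RNA per cell cannot be told apart.

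Th9 cells are helper T cells named for the cytokine IL-9, which promotes mast cell growth, mucus production and eosinophil recruitment in allergic airways. IL-4 signals through JAK1, JAK3 and STAT6, TGF-β signals through SMAD proteins, and IL-2 signals through STAT5; these inputs, together with the T cell receptor factors IRF4 and BATF, act on the Il9 gene. TGF-β alone favours Foxp3 and IL-4 alone favours Gata3, so a Th9 culture sits between a regulatory T (Treg) and a Th2 environment. CIS, the product of Cish, is a STAT5 target that recruits the Cul5 ubiquitin ligase and dampens cytokine signalling.

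The proximal promoters of the cytokine gene that gives the cells their name and of the CIS gene are shown because both genes were among the highest of their families here. Each was read from the RefSeq promoter windows of build GRCm38.p6, which reach from 250 bases before to 50 bases after the annotated start, and all 6 marker genes described below matched a window. The Il9 sequence covers chr13:56482258-56482507 on the minus strand, ending at the base before the start. Capitals mark a TTCNNNNGAA match, the spacing that STAT6 favours, 184 bases before the start, and a TGANTCA match, the AP-1 letters that BATF and JUN dimers recognise, 140 bases before the start.
Il9: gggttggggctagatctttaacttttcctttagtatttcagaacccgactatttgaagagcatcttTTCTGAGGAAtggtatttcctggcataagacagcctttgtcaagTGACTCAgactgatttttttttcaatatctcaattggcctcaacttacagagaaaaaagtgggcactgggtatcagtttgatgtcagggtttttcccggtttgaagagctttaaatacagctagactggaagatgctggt
The Cish stretch of 30 bases covers chr9:107296654-107296683 on the plus strand and begins 5 bases before the annotated start. Capitals mark 2 matches to TTCNNNGAA, the letters that STAT5 binds, which begin 11 bases apart.
Cish: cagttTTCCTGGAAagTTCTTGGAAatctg
The letters TTCNNNGAA read the same on both strands, as do TTCNNNNGAA and TGANTCA, and these motifs were found in 8.30%, 6.95% and 7.81% of all 32851 promoter windows. None of the 3 motifs was found in the windows of Irf4, Batf or Gata3, and 1 of the 2 Foxp3 windows held a TTCNNNGAA match 139 bases before its start. A match is a description of the letters and not of binding.

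All 6 marker genes of this culture were measured well above the floor in every replicate. Il9 was at 1480.5, 1335 and 1098 TPM, a mean of 1304 ± 193 (SD, n = 3), from 8324, 7110 and 1176 counts, and it was read from its only annotated transcript. It ranked 111 of the 15053 protein-coding genes above the floor. The levels of Il9 lay close together, with the highest 1.35 times the lowest. Irf4, an interferon regulatory factor induced by the T cell receptor, was at 220, 360.3 and 283 TPM (mean 288 ± 70.3, SD, n = 3) and was lowest in replicate 1. Batf, the AP-1 family partner of IRF4, was lower per length at 59.7, 51.2 and 51.6 TPM (mean 54.2 ± 4.8, SD, n = 3). Gata3, the Th2 factor downstream of STAT6, showed the least spread of the 6 markers in TPM, with 40, 41.2 and 39.9 TPM (mean 40.4 ± 0.687, SD, n = 3). Its CPM values from the sum over transcripts, 72.5, 79.6 and 75.6, lay less close together. Thus the Batf and Gata3 levels were of the same order, and both sat well under the Irf4 level in each replicate. Foxp3, the Treg lineage factor, reached 242, 196 and 204 TPM (mean 214 ± 24.3, SD, n = 3). Cish was at 267, 298 and 364 TPM (mean 310 ± 49.6, SD, n = 3). Its TPM value was highest in the shallow replicate 3, whereas its CPM values from the sum over transcripts, 646.8, 652.1 and 615.6, were lowest there. The gene-level table that the authors deposited gave 630.9, 671.5 and 858.1 CPM, again highest in replicate 3.

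Foxp3 and Cish were spread over several transcripts, unlike Il9 and Batf. For Foxp3, the coding transcripts Foxp3-206 and Foxp3-203 held 38.2% and 32.7% of the mean gene level, and Foxp3-207, annotated for nonsense-mediated decay, held 20.3%. For Cish, the coding transcript Cish-201 held 49.3% and the processed transcript Cish-202 26.1%. The short processed transcript Cish-205, of 371 bases, was at 6.96, 2.82 and 84.3 TPM, and the short coding transcript Cish-203, of 411 bases, was at 0, 0 and 43.5 TPM. The high TPM value of Cish in replicate 3 thus went with these short transcripts, and Cish-201 and Cish-202 were not highest there. Coding transcript Batf-201 held 99.7% of the Batf level and coding transcript Gata3-201 held 82.5% of the Gata3 level. Irf4 divided between 2 coding transcripts, with 61.1% in Irf4-201 and 37.2% in Irf4-202. The log2 ratio of Il9 to Foxp3 within a replicate was 2.61, 2.77 and 2.43 (mean 2.60 ± 0.17, SD, n = 3), positive in 3 of 3 replicates; with 3 values an exact sign permutation test cannot give a two-sided p under 0.25. Taking the transcript with the most counts of each gene instead gave a mean log2 ratio of 4.24, since Foxp3 was divided among transcripts. Of the 50-base windows of the Foxp3 transcripts, 12.9% also occur in other genes, among them Ccdc22, so its reads may be shared. None of the Il9 windows do. In the gene-level table that the authors deposited, the mean Foxp3 level was 238 CPM against 394 CPM for the sum over its transcripts, whereas Il9 was at 343 and 325 CPM. Of the 436 list genes that could be compared, 15 had a mean more than 2-fold lower in that table than in the sum over transcripts, and 2 had a mean more than 2-fold higher. Il4ra, Il6ra, Tyk2, Socs7, Egr3 and Fasn, described below, were among the 15, so their levels are less certain. The cause was not tested.

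**Figure D1:**
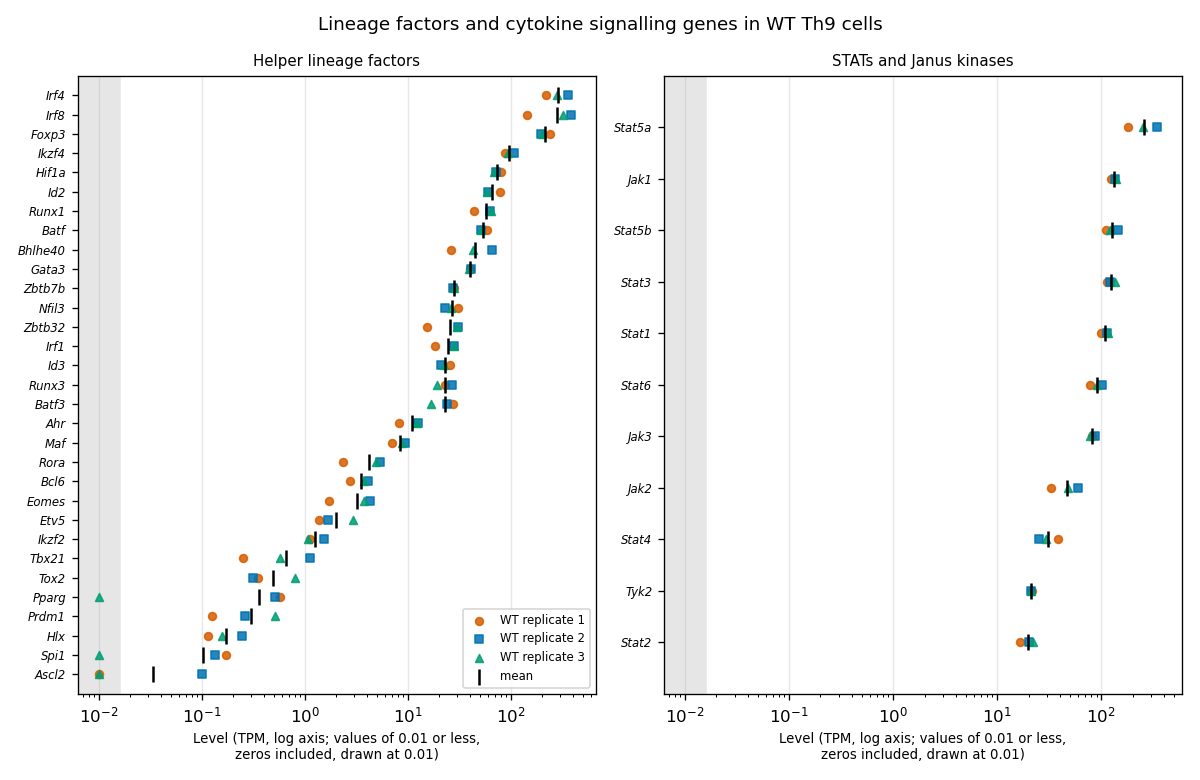
Levels in TPM (log axis) of the helper lineage factors (left) and of the STAT and Janus kinase genes (right) in the 3 WT replicates (circle, square, triangle), with the mean as a bar, ordered by mean; 1 lineage factor is not drawn. Irf4, Irf8 and Foxp3 head the lineage factors, Tbx21 and Spi1 lie under 1 TPM on average, and Stat5a stands above the other signalling genes.

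The helper lineage factors spanned the whole range, with 3 of 32 at 100 TPM or more, 15 between 10 and 100 TPM, 7 between 1 and 10 TPM and 6 under 1 TPM, beside 1 at or under the floor. Irf8, a relative of Irf4, was as abundant on average at 143, 386 and 321 TPM, and its value in replicate 1 was well under those in replicates 2 and 3. The ranges of Irf4, Irf8 and Foxp3 overlapped, and no order among them can be drawn from these replicates. Ikzf4, which encodes the Foxp3 partner Eos, came next at 87.4, 108 and 94.1 TPM, below every Foxp3 value. Its relative Ikzf2, which encodes Helios, was at only 1.14, 1.54 and 1.08 TPM, 77.8-fold lower as the mean ratio within replicates. The coding Ikzf4-201 held 46.1% of the mean Ikzf4 level. Ikzf4-208, annotated for nonsense-mediated decay, held 11.5%, and the short processed transcripts Ikzf4-202 and Ikzf4-207 held 11.3% and 10.3%. The size of this ratio is therefore less certain. The hypoxia factor gene Hif1a at 81.6, 71.7 and 69.6 TPM and Id2, an inhibitor of E proteins, at 79.3, 61.1 and 59 TPM followed, and their ranges overlapped. Bhlhe40, a factor tied to cytokine production, was at 26.3, 65.4 and 43 TPM, and Nfil3, which represses cytokine genes in helper cells, at 30.8, 23 and 26.5 TPM.

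Lineage factors of Th1 and follicular helper cells were low. Tbx21, encoding the Th1 factor T-bet, was at 0.254, 1.13 and 0.577 TPM, and Gata3 exceeded it by 6.20 ± 1.06 on the log2 scale (SD, n = 3). Eomes, its relative in cytotoxic cells, was at 1.74, 4.28 and 3.77 TPM. Both were lowest in replicate 1. The nuclear receptor gene Rora was at 2.37, 5.4 and 4.97 TPM. Maf was at 7.0, 9.47 and 8.77 TPM and the follicular helper factor gene Bcl6 at 2.79, 4.17 and 3.75 TPM. Spi1, which encodes PU.1, a factor known from Th9 cells, was at 0.174, 0.135 and 0 TPM, with no count in the shallow library. Etv5, an ETS factor also known from Th9 cells, was at 1.38, 1.7 and 2.94 TPM, and 24.5% of its 50-base windows also occur in the gene Gm4798, so its reads may be shared. Prdm1, encoding Blimp-1, was under 1 TPM in every replicate and Ascl2 was at or under the floor.

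Every STAT and Janus kinase gene was above 10 TPM in every replicate. Stat5a led at 180.1, 346 and 252 TPM and lay above every value of the other 10 genes in the list. Stat5b, its close relative, was at 109.8, 146 and 122 TPM, a log2 difference of 1.0 ± 0.27 (SD, n = 3). Stat6, the IL-4 transducer, was at 78.5, 101 and 90.5 TPM and Stat3 at 113, 121 and 136 TPM. The IL-12 transducer Stat4 was lower at 38.1, 25.3 and 29.1 TPM, with Stat6 above it by a log2 ratio of 1.56 ± 0.48 (SD, n = 3). Among the kinases, Jak1 was highest at 125, 135 and 139.8 TPM, followed by Jak3 at 81.8, 86.2 and 78.5 TPM and Jak2 at 32.8, 60.1 and 48.1 TPM, and the 3 ranges did not overlap. Tyk2 was at 21.4, 21.1 and 21.2 TPM, and together with Stat2, at 16.4, 20 and 22.1 TPM, it formed the low end of the list. The Tyk2 values lay close together only in the sum over transcripts, at 67.3, 65.6 and 66.4 CPM, and the gene-level table of the authors gave 2.45, 2.37 and 24.2 CPM.

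In the family of STAT-induced inhibitors, Socs2 and Cish stood together at the top. Socs2 was at 403, 338 and 349 TPM, and its range overlapped with that of Cish. Socs1, which binds Janus kinases directly, was at 113, 108 and 104 TPM, below every Cish value by a mean log2 ratio of 1.5 ± 0.28 (SD, n = 3). Socs3 was at 33.6, 36.4 and 31.2 TPM, and the members Socs6, Socs4 and Socs5 followed with means of 14.9, 13.1 and 4.93 TPM. Socs7 was at 1.21, 1.38 and 8.78 TPM, and the same transcript was not read throughout: the coding Socs7-201 was at 0.000348 TPM or less in replicates 1 and 2 and at 8.78 TPM in replicate 3, while the processed Socs7-202 was at 1.21, 1.38 and 0 TPM. The Cul5 scaffold itself was at 21.5, 25.3 and 22 TPM in these floxed but undeleted cells. Its adaptor genes Elob at 572, 514 and 422 TPM and Eloc at 211, 185 and 126 TPM were far higher, and the RING partner gene Rnf7 was at 62.6, 69.9 and 61 TPM. Nedd8, the modifier that activates the ligase, was at 274, 243 and 235 TPM, and Ube2f and Arih2, which serve Cul5 neddylation and ubiquitin transfer, had means of 56.5 and 40.9 TPM. Of the Rnf7 windows, 27.4% also occur in transcripts of Emb.

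For the TGF-β pathway, 13 of 19 genes lay between 10 and 100 TPM. The type I receptor gene Tgfbr1 was at 81.7, 117 and 97.7 TPM and the type II receptor gene Tgfbr2 at 34.9, 57.9 and 55.4 TPM. Tgfbr1 was the higher in each replicate, by a mean log2 ratio of 1.02 ± 0.20 (SD, n = 3). Of the receptor-activated SMAD genes, Smad2 was at 44.7, 49.9 and 66.9 TPM, above Smad3 at 12.1, 20.3 and 12.2 TPM in every replicate. The common partner Smad4 was at 35.1, 46.5 and 60.5 TPM and the inhibitory Smad7 at 16.9, 25.3 and 25.2 TPM. The corepressors Ski, at 83.9, 112 and 104 TPM, and Skil, at 50, 77.1 and 72.5 TPM, were among the highest of the pathway, and the BMP-type Smad9 was under 1 TPM in every replicate. Replicate 1 had the lowest value for 14 of the 18 pathway genes at 1 TPM or more, beside 45.9% of all 11937 genes at that level.

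Il9 dominated the cytokine genes. It made up 55.8, 51.2 and 49.7% of the summed TPM of 38 cytokine genes. The next was Lta, encoding lymphotoxin α, at 580.1, 515 and 457 TPM. Tgfb1 at 251, 315 and 257 TPM and Ltb, the membrane partner of lymphotoxin α, at 140.2, 198 and 174 TPM followed. The ranges of these 4 genes did not overlap, so their order held in every replicate. Tnf, from the same locus as Lta and Ltb, was lower at 25.8, 53 and 46.4 TPM. Ebi3, Lif and Osm were at similar levels, with means of 25.8, 25.8 and 23.7 TPM.

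The Th2 cytokine genes were near the low end although IL-4 was given to the cells. Il4 was at 2.16, 2.44 and 1.85 TPM, and Il9 exceeded it by 9.24 ± 0.17 on the log2 scale (SD, n = 3), about 606-fold. Il13 was at 0.64, 3.39 and 2.36 TPM, lowest in replicate 1. Il5 was at 0.436, 2.22 and 0.501 TPM, with replicates 1 and 3 close together. Its 0.509 CPM in replicate 3 was under the 0.76 CPM that 3 counts correspond to there. Il10, encoding an inhibitory cytokine, was at 9.06, 2.57 and 4.86 TPM and showed the opposite order, with its highest value in replicate 1; Il24, from the same gene cluster, was likewise highest there, at 3.79, 1.83 and 2.15 TPM. Il2, the autocrine T cell growth factor, was at 0.252, 6.94 and 4.87 TPM, a range of 27.6-fold that sets replicate 1 apart. The size of this range is uncertain, because the 0.176 CPM of Il2 in replicate 1 was close to the 0.129 CPM of 3 counts. Of the Il2 windows, 12.6% also occur in transcripts of Ntan1. Ifng was at 0.174, 1.17 and 0.336 TPM, where IFN-γ was neutralised in the medium. Il17f was at 1.03, 1.18 and 2.27 TPM and Il21, a follicular helper cytokine, was under 1 TPM throughout.

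Of the cytokine genes, 11 were at or under the floor. No count was recorded in any replicate for Il25, Il33, Il31, Il22 or Il12b, which allows up to 0.129, 0.13 and 0.76 CPM in the 3 libraries. Il17a, the defining Th17 cytokine, had 0, 1 and 0 counts. Il6 had 1, 0 and 0 counts and Areg, which encodes amphiregulin, had 0, 2 and 0 counts. Tslp, Il18 and Il27, made mostly by epithelial or myeloid cells, were also at or under the floor. Of the Il22 windows, 41.0% also occur in its copy Iltifb, which likewise had no count.

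**Figure D2:**
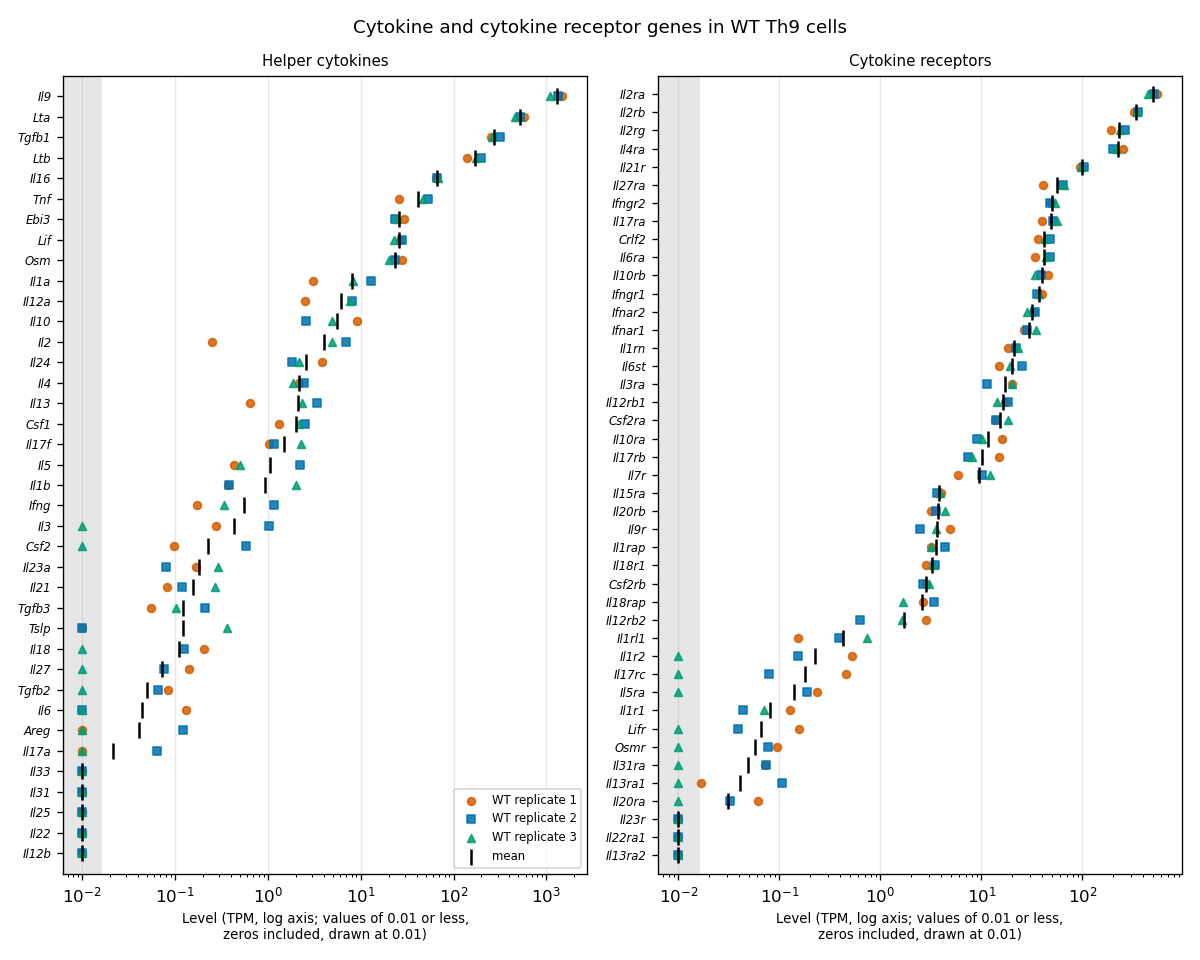
Levels in TPM (log axis) of the cytokine genes (left) and cytokine receptor genes (right) in the 3 WT replicates (circle, square, triangle), with the mean as a bar; values of 0.01 TPM or less are drawn in the grey band. Il9 lies apart at the top, Il2 is split between replicate 1 and the others, and the chains of the IL-2 and IL-4 receptors head the right panel.

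The receptors for IL-2 and IL-4 were the most abundant cytokine receptors. Il2ra, the high-affinity IL-2 chain CD25, was at 548, 516 and 446 TPM. Il2rb, the signalling chain shared with IL-15, was at 327, 354 and 348 TPM, and Il2rg, the common γ chain, at 194, 265 and 234 TPM. The order of these 3 chains held in every replicate, although 27.5% of the Il2rg windows also occur in an overlapping gene model that had no reads assigned. Il4ra was at 255, 199 and 217 TPM, overlapping in range with Il2rg, but the gene-level table gave it 246, 164.7 and 140 CPM against 722.6, 527.2 and 583.3 CPM for the sum over transcripts. Il21r was at 94.5, 105 and 96.9 TPM. Il7r, the receptor of naive and memory cells, was at only 5.9, 10.1 and 12.2 TPM, with Il2ra above it by 5.80 ± 0.68 on the log2 scale (SD, n = 3).

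The receptor for the culture's own product was low. Il9r was at 4.9, 2.47 and 3.53 TPM, and Il17rb, a receptor for IL-25, at 14.8, 7.39 and 8.09 TPM. Crlf2, the receptor chain for TSLP, was higher at 35.9, 47.3 and 42.8 TPM, whereas Il1rl1, the IL-33 receptor ST2, was at 0.151, 0.391 and 0.737 TPM. These 3 alarmin receptors therefore differed in level from each other. Il6ra was at 33.6, 47.3 and 43.7 TPM and its signalling partner Il6st at 15, 25.3 and 19.3 TPM. The interferon γ receptor genes Ifngr1 and Ifngr2 had means of 37.5 and 50.5 TPM. Il12rb1 was at 16.9, 18.2 and 14.2 TPM, and its partner Il12rb2 at 2.82, 0.632 and 1.63 TPM, for which 38.0% of windows also occur in transcripts of the abundant gene Serbp1. Il23r, Il13ra2 and Il22ra1 had no count in any replicate, and Il18r1 and Il1r1 had means of 3.21 and 0.0808 TPM.

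Among trafficking genes, Ccr8, a receptor found on Treg and Th2 cells, was highest at 388, 479.5 and 361 TPM. Ccr7, which directs naive cells to lymph nodes, was at 208, 328 and 282 TPM, and the Th2-associated Ccr4 was at 155, 169.8 and 149.6 TPM. The activation receptor Cd44 was at 77.2, 156 and 129 TPM. Markers of naive and of activated cells were thus both abundant in the bulk RNA. The PSGL-1 gene Selplg and the LFA-1 chain genes Itgb2 and Itgal had means of 319, 276 and 159.7 TPM. Ccr6, of Th17 cells, was at 14.5, 25.5 and 16.1 TPM and Cxcr3, of Th1 cells, at 1.6, 3.88 and 2.61 TPM. Cxcr4 was at 2.54, 8.95 and 10.9 TPM, lowest in replicate 1. Ccr1, Ccr3 and Ccr10 were at or under the floor. Ptgdr2, the Th2 receptor CRTH2, was under 0.1 TPM in every replicate, although 37.8% of its windows also occur in Ccdc86 transcripts, so its reads may be assigned there.

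T cell identity genes were high, which fits the CD4+ label. Cd4 was at 235, 240.3 and 238 TPM and varied little, with the highest value 1.02 times the lowest. Of the 24 receptor and signalling genes, 16 were at 100 TPM or more and the other 8 between 10 and 100 TPM. The receptor constant genes Trac and Trbc2 were at 433, 613 and 585 and 1003, 1042 and 1001 TPM, and 44.0% of the Trbc2 windows also occur in Trbc1. The proximal kinase gene Lck was at 358, 414 and 422 TPM, the adaptor Lat at 465, 572 and 580.5 TPM and Zap70 at 111, 152 and 138 TPM. Cd3e, Cd3g and Cd3d had means of 193, 187 and 104 TPM. Against these levels, Cd8a was at 0.776, 0.534 and 0.474 TPM and Cd8b1 at 4.35, 6.08 and 5.45 TPM.

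In the costimulation list, Tnfrsf4, encoding OX40, led at 256, 372 and 316 TPM, followed by Tnfrsf18, encoding GITR, at 189.5, 156 and 159 TPM. OX40 is a receptor known to promote Th9 cells. The inhibitory receptor Ctla4 was at 150.5, 97.3 and 102 TPM and was highest in replicate 1. Icos was at 91.4, 79.5 and 76.6 TPM and Cd28, the receptor engaged by the added antibody, at 29.2, 41.9 and 39.9 TPM. Pdcd1, encoding PD-1, was at 15.5, 39.2 and 29.4 TPM and Cd274, its ligand, at 13.3, 33.8 and 24.5 TPM, both lowest in replicate 1. Lag3 and Tigit had means of 12.7 and 5.4 TPM, and Havcr2, encoding TIM-3, was under 1 TPM in every replicate. Cd70 and Tnfsf18 were at or under the floor.

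All 18 Treg-associated genes were above the floor, with 7 at 100 TPM or more, 6 between 10 and 100 TPM and 5 between 1 and 10 TPM. The list holds Foxp3, Il2ra, Ccr8, Ikzf4 and others given above. Capg, an actin-capping protein gene, was highest at 737, 784 and 726 TPM, and Izumo1r, which encodes folate receptor 4, was at 546, 468 and 457 TPM. Nt5e, the ectoenzyme CD73, was at 103, 86.5 and 85.5 TPM, whereas Entpd1, the ectoenzyme CD39, was at 5.08, 4.21 and 2.57 TPM. Nrp1, common on thymus-derived Treg cells, was at 37.9, 43.3 and 34.8 TPM, beside the low level of Ikzf2. Itgae, encoding the TGF-β-responsive integrin CD103, was at 6.7, 10.4 and 8.47 TPM and Lrrc32, the latent TGF-β receptor GARP, at 25.9, 39.2 and 29.6 TPM. The cells were isolated as CD25-negative before culture, and no sample from before the culture was analysed here.

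Of the 20 genes of naive and quiescent cells, 4 were at 100 TPM or more, 12 between 10 and 100 TPM and 4, namely Il7r, Cxcr4, Dapl1 and Tob1, between 1 and 10 TPM. Tcf7, the TCF-1 gene, was at 210.2, 346 and 317 TPM, and its partner Lef1 at 158, 176 and 177 TPM. Foxp1 was at 132, 162 and 169 TPM and Foxo1, the factor upstream of Il7r and Klf2, at 53.7, 57.9 and 51.8 TPM. Klf2, which maintains quiescence and trafficking genes, was at 33.2, 81.4 and 87.3 TPM, and Bach2, a repressor of effector genes, at 21.7, 44.3 and 30.6 TPM. Replicate 1 was the lowest for 19 of the 20 genes of this list, where 45.9% of all genes at 1 TPM or more had their lowest value in that replicate. The chromatin organiser gene Satb1 was at 32.3, 55 and 56.6 TPM and the lymphocyte egress receptor S1pr1 at 38.7, 45.3 and 53.9 TPM.

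Several immediate early genes, a class induced within minutes of receptor engagement, separated replicate 1 from the other replicates. Egr1 was at 1.54, 68.3 and 46 TPM and Egr3 at 1.08, 85.4 and 57.2 TPM. Nr4a1, encoding the receptor-responsive factor Nur77, was at 12.5, 171 and 105 TPM. For each of these genes both other replicates lay at least 8.41 times above replicate 1, and replicate 2 was above replicate 3. Nr4a3 was at 30.3, 146 and 125 TPM, Egr2 at 10.8, 33.4 and 24 TPM and the phosphatase gene Dusp2 at 50.1, 149 and 99.4 TPM. Other AP-1 genes differed less, with Jund at 236, 298 and 249.8 TPM, Jun at 25.6, 34.3 and 28.4 TPM and Junb at 149.9, 283 and 214 TPM. Fos itself was low and ran the other way, at 5.13, 2.48 and 1.39 TPM. The phosphatase genes Dusp1, at 7.07, 7.61 and 9.41 TPM, and Dusp6, at 29.4, 28.3 and 31.3 TPM, did not set replicate 1 apart. Myc, which encodes a transcription factor for the growth of activated lymphocytes, was at 185, 265 and 235 TPM. In all, 17 of the 19 immediate early genes at 1 TPM or more were lowest in replicate 1, beside 45.9% of all genes at that level.

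Among the chemokine ligand genes, 4 were also low in replicate 1. Xcl1, which attracts dendritic cells, was at 0.37, 24.4 and 12.5 TPM, and Ccl4, an inflammatory chemokine, at 0.258, 17 and 15.2 TPM. Ccl1, the ligand of CCR8, was at 0.191, 25.3 and 9.77 TPM, and Ccl3 at 0.209, 6.18 and 4.23 TPM. All 4 were under 1 TPM in replicate 1 and above 4 TPM in both others. They reached a mean of 1 TPM only through replicates 2 and 3, so no count over this list is drawn from them. These values rested on few counts, with 2, 125 and 13 for Xcl1 and 2, 56 and 7 for Ccl3. Ccl22 and Ccl17, which bind CCR4, were less apart, at 2.16, 4.93 and 4.43 TPM and 3.62, 4.43 and 0.977 TPM. When replicates 1 and 2 were thinned at random to the depth of replicate 3, Egr1 was at 1.56, 66.5 and 46.0 TPM and Nr4a1 at 10, 164 and 105 TPM. Xcl1 was then at 0, 14.9 and 12.5 TPM, Ccl4 at 0, 20 and 15.2 TPM and Ccl1 at 0, 30.4 and 9.77 TPM. Replicate 1 thus stayed apart for Egr1 and Nr4a1 at equal depth. Xcl1, Ccl4, Ccl1 and Ccl3 had less than the 0.129 CPM of 3 counts in replicate 1 before thinning, so thinning cannot decide for them. Ccl3, at 1.23, 2.59 and 4.23 TPM, was no longer under 1 TPM in replicate 1. Thinning was a random draw, in which Ccl17 moved to 6.74, 0 and 0.977 TPM. Thinning matched total counts and not fragment length, and the cause of the difference was not tested.

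**Figure D3:**
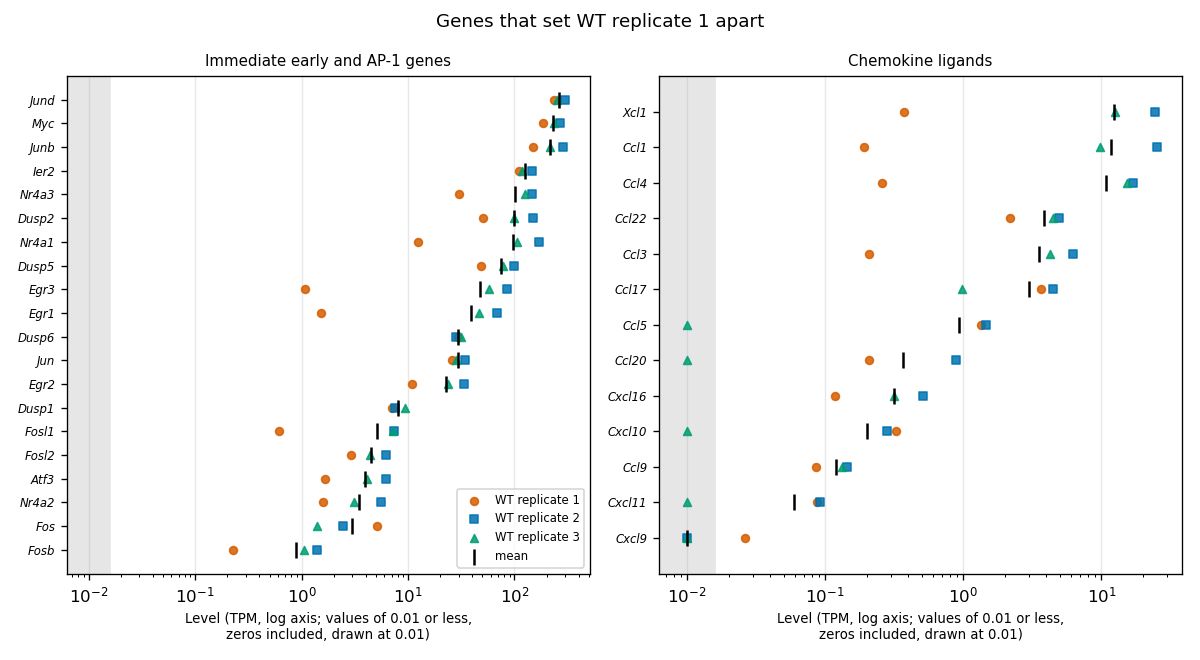
Levels in TPM (log axis) of the immediate early and AP-1 genes (left) and of the chemokine ligand genes (right) in the 3 WT replicates (circle, square, triangle), with the mean as a bar; values of 0.01 TPM or less are drawn in the grey band. Replicate 1 lies far to the left for Egr1, Egr3, Nr4a1, Xcl1, Ccl1, Ccl3 and Ccl4, while replicates 2 and 3 lie closer together.

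Over all protein-coding genes with a mean of at least 10 TPM, 7872 in number, replicate 1 lay more than 2-fold under both others for 52 genes and more than 2-fold above both for 7 genes. Replicate 2 stood apart in this way for 3 and 6 genes, and replicate 3 for 13 and 26 genes. Of the 52 genes, 14 belong to the lists described here. The others, named here after their values were seen, included Nfkbid at 23.9, 97.4 and 74.5 TPM, which encodes a nuclear IκB protein. Lcn2, the iron-binding lipocalin, was at 0.658, 20.8 and 10.6 TPM, and the adhesion gene Alcam was at 5.05, 19.1 and 15.6 TPM. Among the 7 genes that were higher, the metallothionein gene Mt1 was at 57.7, 10.3 and 22.7 TPM and the ATP receptor gene P2rx7 at 33.9, 14.4 and 11.1 TPM.

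Glycolytic genes were among the most abundant messages. They summed to 1.37, 1.12 and 1.13% of all TPM, and 9 of 28 were at 100 TPM or more. Gapdh was at 4606, 3423 and 3434 TPM, and because 25.1% of its windows also occur in 31 close copies, its sum with these copies was 4821, 3859 and 5497 TPM, with the highest value moved from replicate 1 to replicate 3. Ldha, which turns pyruvate into lactate, was at 2112, 1793 and 1742 TPM. Eno1, Pkm and Aldoa, the last taken from the more abundant of 2 gene entries of that symbol, had means of 1489, 1312 and 1091 TPM. The paralogues separated widely: Hk1 at 58.6, 66 and 59.7 TPM lay above the inducible Hk2 at 27.1, 28.8 and 24.8 TPM in every replicate, and the glucose transporter gene Slc2a1 at 48.8, 53.6 and 57.5 TPM lay above Slc2a3 at 18.6, 19.7 and 14.1 TPM. Ldhb was at 2.4, 1.7 and 15.5 TPM, and Pklr, the liver and red cell isoform of pyruvate kinase, had no count. Tpi1, an enzyme of the same chain, was at 19, 23.3 and 134 TPM, far below Gapdh and Ldha in every replicate. Its high value in replicate 3 went with Tpi1-203, at 7.74, 5.62 and 75.7 TPM, and Tpi1-205, at 5.33, 13.4 and 56.9 TPM. Transcripts Ldhb-202 and Ldhb-203 were read only in replicate 3, at 3.88 and 2.16 TPM. The Tpi1 and Ldhb levels, and their place among the glycolytic genes, are therefore uncertain. Of the windows of Eno1, Ldhb and Pgam1, 26.0, 21.0 and 36.2% also occur in other genes, so these levels are less certain. The lactate exporters Slc16a1 and Slc16a3 had means of 51.5 and 54.1 TPM.

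**Figure D4:**
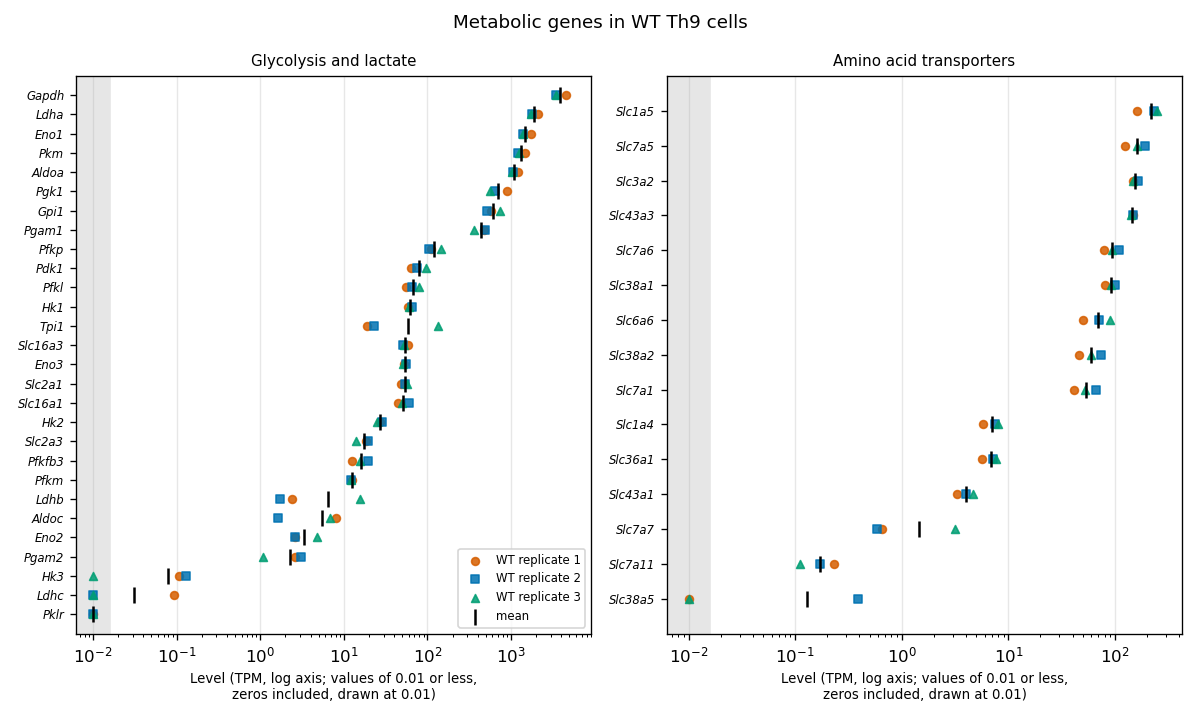
Levels in TPM (log axis) of the glycolysis and lactate genes (left) and of the amino acid transporter genes (right) in the 3 WT replicates (circle, square, triangle), with the mean as a bar; values of 0.01 TPM or less are drawn in the grey band. Gapdh and Ldha head the left panel, and Tpi1 and Ldhb are examples where replicate 3 lies apart from the others.

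Of the hypoxia genes, Mif, a cytokine and glycolysis-linked gene, was highest at 1923, 1768 and 1538 TPM, with 50.9% of its windows shared with other genes. The prolyl hydroxylase genes Egln1, Egln2 and Egln3 had means of 42.3, 35.8 and 40.5 TPM. Epas1, encoding HIF-2α, was at 1.91, 1.85 and 1.78 TPM, well under Hif1a. In the tricarboxylic acid cycle, 15 of 26 genes were at 100 TPM or more, led by Mdh2 at 375, 399 and 547 TPM. The cytosolic isocitrate dehydrogenase Idh1, at 4.47, 3.73 and 5.54 TPM, was the lowest of that list, while its mitochondrial relative Idh2 was at 48.1, 51.7 and 53.3 TPM. The 13 mitochondrially encoded protein genes together made up 9.44, 8.52 and 7.93% of all TPM, and the highest was mt-Co1 at 17662, 15536 and 16531 TPM. Most of the windows of 7 of these genes also occur in nuclear copies, so single values such as mt-Co2 at 5894, 5468 and 3360 TPM are uncertain.

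Lipid synthesis genes were well represented. Fasn, the fatty acid synthase gene, was at 183, 242 and 249 TPM, and the desaturase genes Scd2 and Scd1 were at 223, 214 and 206 and 234, 128 and 204 TPM. The regulators Srebf2 and Srebf1 were at 138, 174 and 209 and 84.8, 107 and 145 TPM. Fatty acid oxidation was represented by Cpt1a at 54, 50.4 and 64.2 TPM. Acacb and the fatty acid transporter gene Cd36 were under 1 TPM in every replicate. Amino acid transport was led by the glutamine transporter Slc1a5 at 162, 235 and 251 TPM and the large neutral amino acid transporter chains Slc7a5 and Slc3a2 at 124, 192 and 162 and 147, 165 and 148 TPM. The cystine transporter Slc7a11 was at 0.232, 0.17 and 0.111 TPM, far under its partner Slc3a2.

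Serine and one-carbon genes were high, with 13 of 22 at 100 TPM or more. Phgdh, the entry enzyme of serine synthesis, was at 450.2, 439 and 402 TPM, although 47.5% of its windows also occur in other genes. The mitochondrial Shmt2 was at 313, 379.6 and 351 TPM, above the cytosolic Shmt1 at 70.6, 128 and 114 TPM in every replicate. Rrm2, the regulated subunit of ribonucleotide reductase, was at 278, 280.4 and 264 TPM. The cells carried the messages of proliferation: Cdk4 at 607, 626 and 767 TPM, Pcna at 606, 554 and 543 TPM and Mki67 at 175, 157 and 149 TPM. Of the windows of Cdk4 and Pcna, 17.0 and 19.1% also occur in other genes, so the levels of these 2 genes are less certain. Of the D-type cyclins, Ccnd3 at 407, 341 and 350.2 TPM and Ccnd2 at 174, 285 and 312 TPM were high, and Ccnd1 was at 0.418, 0.74 and 0.389 TPM. Cdkn2a, an inhibitor of CDK4, was at or under the floor, while Cdkn1a was at 102, 59 and 66.3 TPM. Among survival genes, Bcl2l1, encoding BCL-XL, was at 112, 186 and 170 TPM, above Bcl2 at 36.7, 35.5 and 36.9 TPM in every replicate. The pro-apoptotic Bcl2l11, encoding BIM, was lowest in replicate 1, at 3.25, 11.2 and 10.4 TPM.

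Of the cytotoxic list, the granule proteoglycan gene Srgn and the lysosomal gene Lamp1, which other lymphocytes also use, were highest, and Nkg7, a granule membrane protein gene, followed at 5.76, 16.9 and 12.5 TPM. Gzmb was at 5.24, 3.66 and 6.25 TPM and Prf1, encoding perforin, at 0.231, 0.709 and 1.13 TPM. Of the 14 genes of this list, 6 were at or under the floor, including Gzma and Gzmk. The aryl hydrocarbon receptor gene Ahr was at 8.25, 12.5 and 12.5 TPM, its partner Arnt at 37.8, 37.7 and 37.1 TPM, and its target Cyp1a1 at 6.44, 4.82 and 4.22 TPM.

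Markers of other cell types were low in sum, with the B cell and γδ T cell genes above the other lists. The summed TPM of the 7 B cell genes was 46.7, 33.9 and 39.3, carried by Fcmr at 23.9, 14.7 and 17.2 TPM and Cd79b at 16.1, 11.5 and 13.6 TPM, while Ms4a1 was at 0.162, 0.28 and 0 TPM. The 8 myeloid genes summed to 1.73, 4.23 and 8.36 TPM, with S100a8 and S100a9 at 0. The 6 NK cell genes summed to 2.28, 2.25 and 3.51 TPM, with Ncr1 at 0. The 4 γδ T cell genes summed to 16.9, 12.7 and 15.2 TPM, led by Tcrg-C2 at 7.48, 5.66 and 7.7 TPM, whose windows overlap with those of its copies, and Tcrg-C4 at 7.1, 3.88 and 4.81 TPM. Their part in the levels given above was not tested. The 5 mast cell and basophil genes, whose cells respond to IL-9, summed to 0.364, 0.43 and 0.269 TPM, with Fcer1a at 0. The 6 erythroid genes summed to 2.97, 0.813 and 0 TPM and the 3 platelet genes to 1.23, 2.22 and 1.85 TPM. The Y-linked genes were all under 1 TPM in every replicate, with Kdm5d highest at 0.734, 0.771 and 0.916 TPM; Xist was not analysed here.

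**Figure D5:**
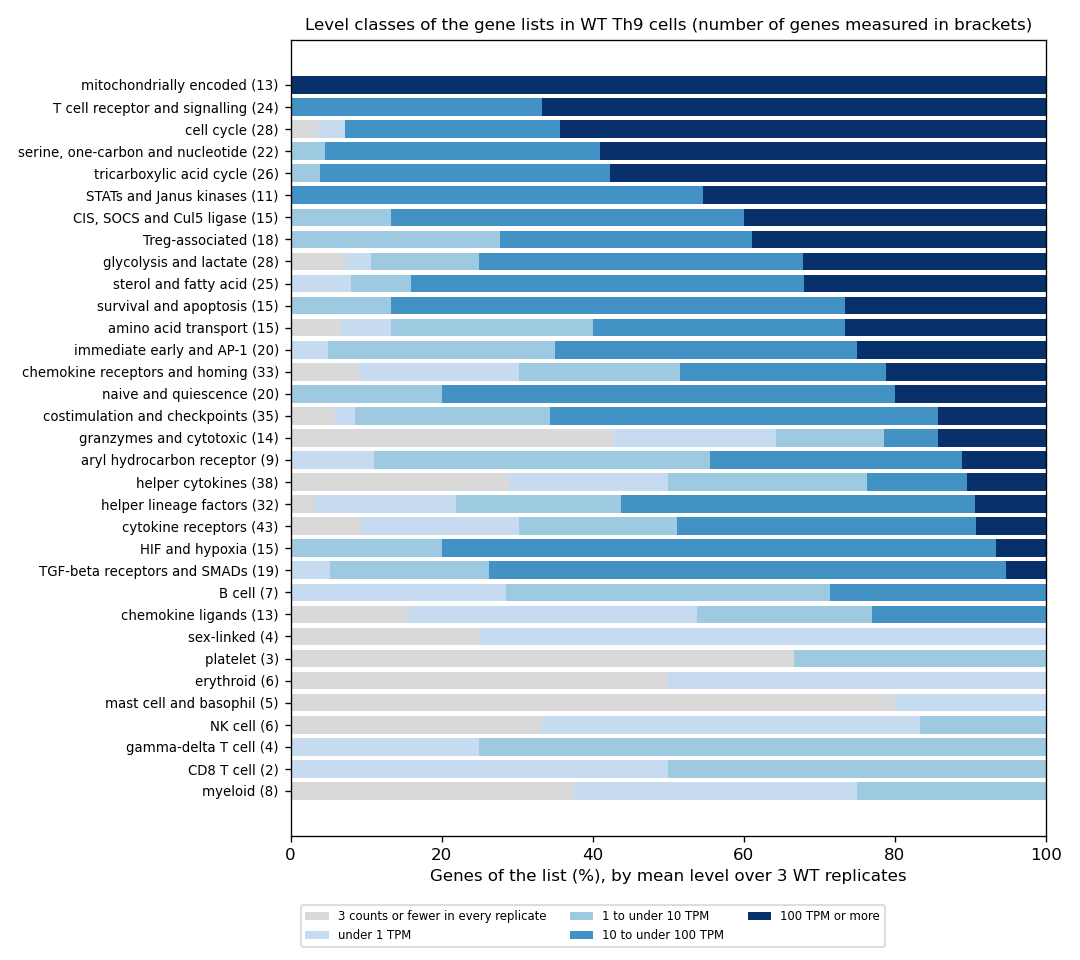
Share of the genes of each list (percent, horizontal bars) in 5 classes of mean level over the 3 WT replicates, from 3 counts or fewer in every replicate (grey) to 100 TPM or more (dark blue). All 13 mitochondrially encoded genes and 16 of 24 T cell receptor and signalling genes are in the top class, and the lists of other blood cells hold none there.

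The highest protein-coding genes were those of the respiratory chain and the ribosome. After mt-Co1 and mt-Atp6 came the elongation factor Eef1a1, at 10990, 11303 and 15080 TPM. The 84 ribosomal protein genes summed to 18.7%, 17.7% and 15.9% of all TPM. Between replicates, the Spearman correlation of the 8089 genes with a mean of at least 10 TPM was 0.971 for replicates 1 and 2, 0.942 for 1 and 3 and 0.957 for 2 and 3, across genes that are not independent. Genes over 2-fold apart numbered 143, 258 and 136 in these pairs. For the 7872 protein-coding genes alone, the correlations were 0.971, 0.957 and 0.973, and 109, 180 and 64 genes were over 2-fold apart. Among protein-coding genes, replicates 2 and 3 were thus the closest pair. Of the 144 pseudogenes at that level, 23, 57 and 62 were over 2-fold apart in these pairs. The 10 genes outside the lists with the widest spread were all pseudogenes read mainly in replicate 3, such as Rps13-ps2 at 0, 0 and 308 TPM. Pgam1-ps2, a copy of a glycolytic gene, reached 182 TPM in replicate 3 and was under 1 TPM in the others. Pgam1 itself was at 474, 486 and 360.4 TPM. The effective length of long transcripts fell short of their full length by 211, 209 and 246 bases in the replicates, so replicate 3 also differed in the fragment length set or estimated for it. Its part in the values of Tpi1, Ldhb, Socs7 and the copies was not tested.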

How the data were processed

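Poly-A RNA of the WT samples was sequenced on a BGIseq500 platform as single-end reads of 50 bases. The authors pseudo-aligned reads to mouse build GRCm38 with kallisto 0.46.2, and deposited, per sample, an estimated count and a TPM value (count over effective length, scaled per library) for each transcript. They also deposited a gene-level table of TMM-normalised log2 CPM values made with edgeR 3.34.0, with 11242 entries.

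Of 119414 transcripts, 116728 (97.8%) matched GENCODE vM21 and were summed by gene with pandas 2.3.3 in Python 3.11.15; the unmatched transcripts held 0.963 to 1.01% of counts. Groups were taken from the genotype label. The study's cells without Cul5 were not used, so no comparison between groups was tested. Levels are means ± SD over 3 replicates. CPM used TMM factors from edgeR 4.0.16, with DESeq2 1.42.0 size factors as an alternative. Level classes were checked on Poisson counts simulated from the mean levels of these data. Only genes with a simulated level of at least 1 TPM and away from the class limits were scored. The check therefore covers counting error, and not the floor, read sharing or spread between replicates. Of 555 genes in 33 lists, 553 were measured, and 436 of them had 1 entry in the gene-level table. Copies were sought as shared windows of 50 bases. The members, lists and rules were chosen with earlier results of these data known. Named were the 6 markers, up to 6 leading genes per list, members at or under the floor, members with the widest spread, the highest genes over all, and further members chosen for their role with their values known. A few list members are not reported here.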

Additional observations from a re-analysis of the deposited data

How the results depend on the processing

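No paired analysis was possible because the WT samples form a single group and no test between groups was run. Over 54 alternative values for 21 results, 45 stayed within 1.5 times the reported count or 1 SD of the reported value, and 9 moved beyond it. A further 21 means with a replicate left out were not counted, because a mean of 3 values cannot move by 1 SD in that way. The number of genes at or under the floor ranged from 19493 to 20545 when a replicate was left out and was 6844 among protein-coding genes alone, by construction. It was 16798 with a floor of 1 count, 22286 with a floor of 10 counts and 22947 with libraries thinned to the depth of replicate 3. Genes at 1 TPM or more in every replicate numbered 10998, and 11151 to 11276 with a replicate left out. Those at 100 TPM or more numbered 1374, and 1387 to 1485. The latter numbered 1603 from counts over mean effective length and 1518 without mitochondrial genes. A count that requires every replicate can only stay or rise when a replicate is left out. These ranges, and that of list members at or under the floor, therefore do not show that the counts are robust. List members at or under the floor numbered 47, then 47 to 59 with a replicate left out and 0 among genes of the authors' gene-level table, in which none of the 47 is listed; members at 100 TPM or more numbered 149, and 144 to 153. The mean log2 ratio of Il9 to Foxp3 was 2.52 to 2.69 with a replicate left out and 4.24 from the transcripts with the most counts. With genes from a mean of 1 TPM included, 787, 1347 and 959 genes were over 2-fold apart in replicates 1 and 2, 1 and 3, and 2 and 3. The mean CPM of Gata3, Foxp3 and Cish was 75.9, 394 and 638 from summed transcripts and 84.2, 238 and 720 in the gene-level table; the cause was not tested. Genes near 1 TPM are least certain in replicate 3, where 12228 genes passed 3 counts against 15671 and 15278 in replicates 1 and 2.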
